A study of Mus musculus with 8 samples.

Results

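Growth hormone signalling in mouse liver was followed through 10 of the 47719 genes listed in the deposited table, matched by gene symbol: Ghr, Stat5b, Socs2, Cish, Bcl6, Igf1, Igfals, Hsd3b5, Elovl3 and Car3. The 10 genes were chosen with their levels in all 8 libraries known, so their levels and differences are given as description, with no p-values. The calls that a fit across all genes gave them are counted once, beside the share of all genes called, and nothing is read from them. Liver RNA came from wild type C57BL/6 mice in 3 groups. Day 2 after hepatectomy had 4 libraries, day 14 after hepatectomy had 2, and normal control mice aged 10 weeks had 2. The study concerns encapsulated human hepatocyte organoids given after removal of a large part of the liver. Its design text places mice given EMC, the treated control, and mice given eLO at day 2, and mice given eLO at day 14, and it does not spell out either abbreviation. No label says which day 2 library received which, so the day 2 libraries form 1 group of unknown treatment. Surgery and treatment cannot be told apart in any comparison with control, nor time and treatment between the 2 days. The age of the operated mice at surgery, their sex, and whether libraries came from separate mice are not given by the labels, so every error here is the spread between libraries, which may be technical.

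Growth hormone binds the receptor encoded by Ghr on hepatocytes, the kinase JAK2 then phosphorylates STAT5B, and STAT5B enters the nucleus and activates Igf1, Igfals, Socs2 and Cish. The products of Socs2 and Cish act back on the receptor complex, and BCL6 is a repressor that can occupy STAT5 sites. In mouse liver Cish is induced soon after growth hormone arrives, and BCL6 binding is known to be strongest while STAT5 activity is low. In male mice growth hormone is released in pulses, and liver genes such as Hsd3b5 and Elovl3 depend on that pattern and are more highly expressed in males. All 8 libraries carried transcripts of the Y-linked genes Ddx3y, Eif2s3y, Kdm5d and Uty, at 1.04 to 51.7 FPKM (fragments mapped to a gene, per kilobase of its transcript and scaled to the mapped fragments of the library), while Xist was at most 0.0163 FPKM.

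The promoters that carry the letters of a STAT5-type motif are shown because that motif is how STAT5 proteins recognise DNA. RefSeq promoter windows of 300 bases on GRCm38.p6, running from 250 bases before to 50 bases after a start site, existed for 7 of the 10 genes, in 12 windows. The motif TTCNNNGAA, which is its own reverse complement and so was found on both strands at once, occurred in windows of 3 genes, Cish, Bcl6 and Igfals. It was not found in the windows of Ghr, Stat5b, Igf1 and Hsd3b5, which says only that these letters are absent from these windows. The 1 Hsd3b5 window (chromosome 3, 98645485 to 98645784, minus strand) lies upstream of and outside the gene's span in GENCODE M21, 98618634 to 98630252. Among all 32851 windows, 8.3% held the motif, as did 9.55% of the 27025 genes with a window. The windows with the most matches for Cish and Bcl6, and the Igfals window with the match nearest a start site, read as follows, 5′ to 3′ on the strand of the gene, with each motif in capitals.
Cish, chr9:107296409-107296708, plus strand: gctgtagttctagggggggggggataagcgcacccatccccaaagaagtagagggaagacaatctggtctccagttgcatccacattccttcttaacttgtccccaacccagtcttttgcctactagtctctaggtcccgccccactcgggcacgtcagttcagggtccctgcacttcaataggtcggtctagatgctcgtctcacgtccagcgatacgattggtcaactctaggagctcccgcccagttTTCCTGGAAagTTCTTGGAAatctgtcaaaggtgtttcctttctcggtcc
Bcl6, chr16:23981234-23981533, minus strand: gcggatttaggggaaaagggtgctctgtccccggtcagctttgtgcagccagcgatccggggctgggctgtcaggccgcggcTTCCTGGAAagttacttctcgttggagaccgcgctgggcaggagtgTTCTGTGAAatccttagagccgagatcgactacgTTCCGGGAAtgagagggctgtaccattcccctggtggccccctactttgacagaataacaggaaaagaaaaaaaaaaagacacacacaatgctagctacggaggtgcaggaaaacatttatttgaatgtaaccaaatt
Igfals, chr17:24877981-24878280, plus strand: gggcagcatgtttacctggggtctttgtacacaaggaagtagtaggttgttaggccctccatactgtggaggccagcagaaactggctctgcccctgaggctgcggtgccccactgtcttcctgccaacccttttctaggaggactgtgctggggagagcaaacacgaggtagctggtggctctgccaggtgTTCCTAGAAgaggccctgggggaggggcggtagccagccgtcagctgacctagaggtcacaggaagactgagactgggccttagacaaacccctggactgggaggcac
The 2 Cish motifs lie at window bases 251 to 259 and 262 to 270, just after the RefSeq start site. Each of the 3 windows shown lies inside the span of its gene in GENCODE M21. The spans are 107296026 to 107302784 for Cish, 23965052 to 23988852 for Bcl6 and 24865997 to 24882010 for Igfals. The Bcl6 window shown (chromosome 16, minus strand) holds 3 motifs. A second Bcl6 window holds 1 and another Igfals window holds 1. A match is a run of letters and was not tested for binding.

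FPKM was analysed as log2(FPKM + 1), on which a difference understates the change of low genes, and genes reaching 1 FPKM in at least 2 libraries were tested, 12340 in all. All 10 genes passed this filter. The hepatocyte markers, 7 of 8 listed, summed to 36349 to 62265 FPKM at day 2, 53906 and 56381 at day 14 and 45356 and 48000 in control libraries. Cycling cell markers summed to 495 and 706 FPKM in day 2 replicates 3 and 4, but to 3.38 and 2.09 in replicates 1 and 2, 9.69 and 12.2 at day 14 and 8.50 and 9.87 in control libraries. Neutrophil and monocyte markers summed to 61.9 to 336 FPKM at day 2, 24.7 and 81.2 at day 14, and 45.0 and 38.7 in control libraries. Its genes went different ways, with S100a8 at 11.7 to 102 FPKM at day 2, 4.07 and 25.0 at day 14 and 0.769 and 1.85 in controls, and Lyz2 at 17.3 to 37.1 FPKM at day 2, 10.6 and 13.8 at day 14 and 40.9 and 31.3 in controls. Endothelial markers summed to 24.7 to 84.3 FPKM at day 2, 29.8 and 53.5 at day 14, and 107 and 100.5 in control libraries. Erythroid markers summed to 370 to 1707 FPKM at day 2, 2767 and 1266 at day 14 and 427 and 351 in controls. Kupffer cell markers summed to 78.0 to 148 FPKM at day 2, 49.5 and 50.7 at day 14 and 103 and 84.4 in controls. Lymphocyte markers summed to 0.197 to 1.34 FPKM at day 2, 4.31 and 4.71 at day 14 and 1.52 and 1.26 in controls. Stellate cell and fibroblast markers summed to 63.7 to 163 FPKM at day 2, 33.7 and 53.0 at day 14 and 70.4 and 70.2 in controls, and cholangiocyte markers to 46.8 to 126 FPKM at day 2, 105 and 122 at day 14 and 61.3 and 75.3 in controls. The part of these cells in the results was not tested, and in bulk liver fewer cells of a type and less RNA per cell cannot be told apart. Short transcripts read higher than long ones in the operated mice relative to the controls. The shortest of 8 equal groups of genes exceeded the longest by 0.80 to 0.93 log2 units at day 2 and by 0.62 and 0.93 at day 14, against 0.03 and -0.03 in the controls.

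**Figure D1:**
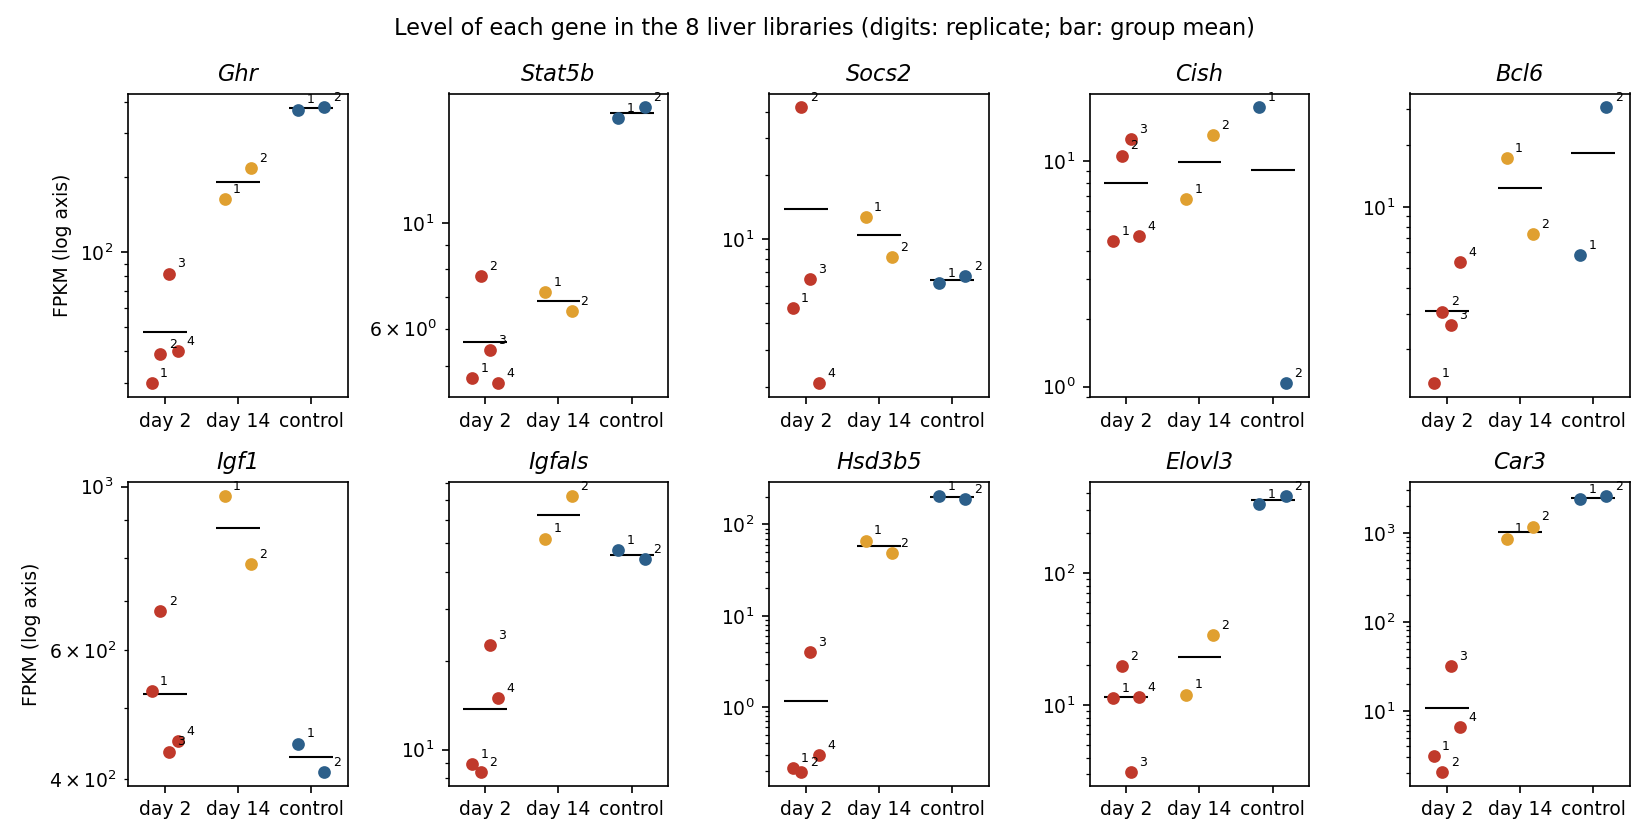
FPKM of the 10 genes in each library on a log axis, with day 2, day 14 and control from left to right; each point is 1 library, its digit the replicate, and each bar the group mean. Car3 lay between 2.06 and 31.6 FPKM at day 2, at 857 and 1170 at day 14 and at 2370 and 2604 in the controls, whereas Igf1 lay between 410 and 972 FPKM in all 8 libraries.

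The receptor gene was low at day 2. Ghr stood at 29.8, 39.2, 82.0 and 40.1 FPKM in day 2 replicates 1 to 4, at 164 and 218 FPKM at day 14 and at 373 and 381 FPKM in the control libraries. The 3 groups did not overlap, and the order day 2, day 14, control held for every library. Ghr averaged 47.8 ± 23.3 FPKM at day 2 (SD, n = 4), 191 ± 38.4 at day 14 (n = 2) and 377 ± 5.67 in controls (n = 2), so the control mean was 7.90 times the day 2 mean. The log2 difference from control was -3.06 ± 0.38 (SE of the limma fit, as in all differences here) at day 2 and -0.995 ± 0.44 at day 14, and day 14 exceeded day 2 by 2.07 ± 0.38. Ghr is annotated on chromosome 15 at 3317760 to 3583492, minus strand (GENCODE M21, GRCm38).

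Stat5b, the main STAT5 gene of hepatocytes, was low on both days. It stood at 4.72, 7.73, 5.41 and 4.61 FPKM at day 2, at 7.16 and 6.52 at day 14 and at 16.6 and 17.5 in controls. Both days lay below both controls, and the day 14 values lay within the day 2 range. Relative to control the difference was -1.47 ± 0.23 at day 2 and -1.20 ± 0.26 at day 14, and day 14 minus day 2 was 0.27 ± 0.23. Its relative Stat5a and the kinase gene Jak2 were in the wider list of the cascade described below. Jak2, singled out after its values were seen, stood at 2.13 to 2.59 FPKM at day 2, 1.86 and 1.89 at day 14 and 3.77 and 3.72 in controls. Its differences from control, -0.48 ± 0.17 at day 2 (limma adjusted p = 0.0846) and -0.72 ± 0.20 at day 14 (limma adjusted p = 0.0587), did not pass the test.

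The feedback genes did not separate day 2 from control. Socs2 stood at 4.72, 41.9, 6.46 and 2.08 FPKM at day 2, at 12.7 and 8.24 at day 14 and at 6.17 and 6.69 in controls. Day 2 spanned the control values, with replicate 2 far above the rest, while both day 14 libraries lay above both controls. The day 2 difference from control was 0.22 ± 0.88, or -0.55 without replicate 2, and that of day 14 was 0.60 ± 1.01. Day 2 replicate 2 also had the highest neutrophil and monocyte sum, 336 FPKM, and the highest Socs3, 71.7 FPKM, whose part in the Socs2 value was not tested. Cish, which encodes a SOCS family inhibitor induced rapidly by growth hormone, stood at 4.40, 10.6, 12.5 and 4.65 FPKM at day 2, at 6.76 and 13.0 at day 14 and at 17.3 and 1.03 in controls. Every operated library lay between the 2 controls.

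The 2 control libraries disagreed on Cish and Bcl6, in opposite directions. Cish was 17.3 FPKM in control 1 and 1.03 in control 2, a gap of 3.17 on the log2 scale that only 5 of 12340 tested genes, Cish included, reached or exceeded (0.0405%). Bcl6 was 5.82 FPKM in control 1 and 30.7 in control 2, a gap of -2.22 that 13 genes matched or exceeded in size (0.105%). The other 8 genes differed between the controls by -0.21 to 0.13 log2 units, so Ghr, Igf1 and Socs2 read nearly alike in these 2 libraries. The time of sampling is not given by the labels. The gap decides the direction for Cish, which stood 0.45 ± 0.80 above control at day 2, but 2.03 above it without control 1 and -1.14 from it without control 2. The Cish difference at day 14 was 0.77 ± 0.93, 2.36 without control 1 and -0.81 without control 2.

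**Figure D2:**
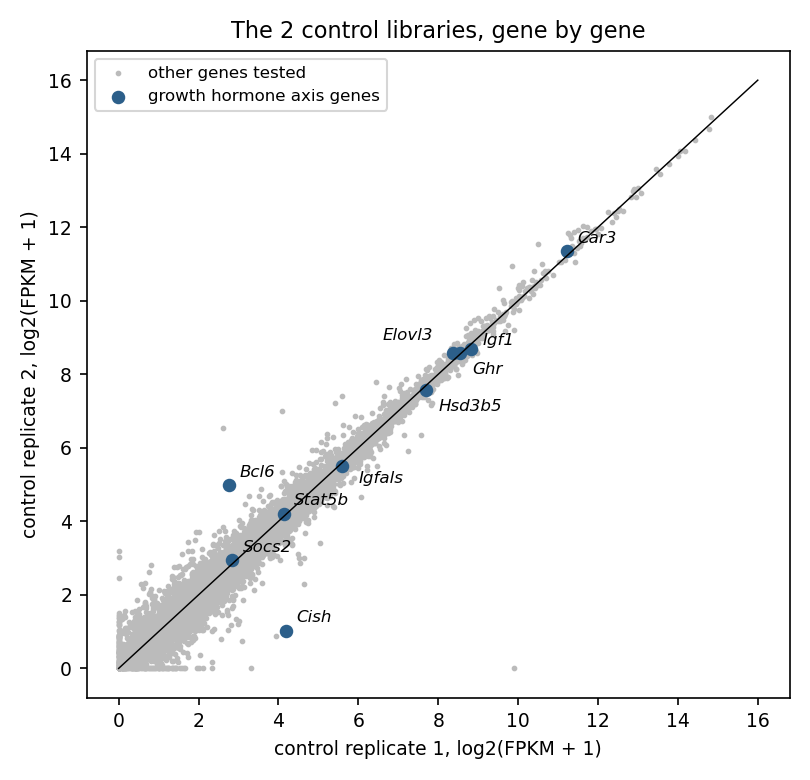
log2(FPKM + 1) of each tested gene in control 2 plotted against control 1, with the 10 genes marked. Cish and Bcl6 lie far from the diagonal on opposite sides, with gaps of 3.17 and -2.22 log2 units, and the other 8 lie on or near it.

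Bcl6 was low in every day 2 library, at 1.36, 3.06, 2.62 and 5.35 FPKM, against 17.3 and 7.34 FPKM at day 14 and 5.82 and 30.7 FPKM in controls. The day 2 values lay below all others, and the day 14 values lay between the controls. The day 2 difference from control was -1.93 ± 0.64, or -3.04 without control 1 and -0.82 without control 2. At day 14 it was -0.25 ± 0.73, and it changed sign with the control kept, -1.36 without control 1 and 0.86 without control 2. Day 14 exceeded day 2 by 1.68 ± 0.64.

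The circulating factors parted from each other. Igf1, the hormone through which growth hormone acts on many tissues, stood at 527, 678, 436 and 451 FPKM at day 2, at 972 and 784 at day 14 and at 448 and 410 in controls. Day 2 overlapped the controls, and both day 14 libraries lay above all others. Differences from control were 0.27 ± 0.27 at day 2 and 1.03 ± 0.31 at day 14, and day 14 minus day 2 was 0.76 ± 0.27. The longest annotated Igf1 transcript has 7052 bases, and with the length and GC trend taken out of each library these differences were 0.86, 1.28 and 0.42. Of the 10 genes, Igf1 alone had a difference that moved by more than the spread between replicates under that setting.

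Igfals encodes the acid-labile subunit, which holds IGF1 in a long-lived complex in the blood. It stood at 8.93, 8.42, 22.6 and 14.9 FPKM at day 2, at 51.8 and 72.3 at day 14 and at 47.3 and 44.2 in controls. The groups did not overlap, with day 2 lowest and day 14 highest. Differences from control were -1.77 ± 0.39 at day 2 and 0.41 ± 0.45 at day 14, and day 14 exceeded day 2 by 2.18 ± 0.39. The Igf1 to Igfals ratio of FPKM, which is per length, was 59.1, 80.5, 19.3 and 30.2 at day 2, 18.8 and 10.8 at day 14 and 9.47 and 9.27 in controls. Every operated library thus had more Igf1 per Igfals than either control. The Igf1 to Ghr ratio was likewise 17.7, 17.3, 5.32 and 11.2 at day 2, 5.94 and 3.60 at day 14 and 1.20 and 1.07 in controls. Igf1 is annotated on chromosome 10 at 87858265 to 87937042, plus strand, and Igfals on chromosome 17 at 24865997 to 24882010, plus strand (GENCODE M21, GRCm38).

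**Figure D3:**
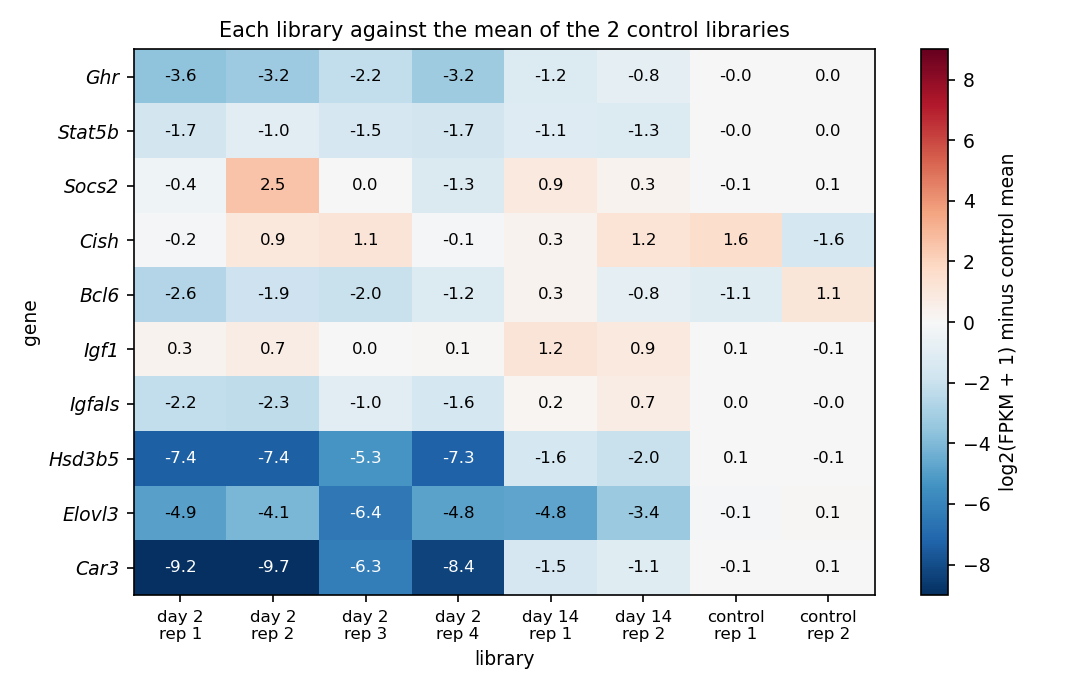
Difference of log2(FPKM + 1) from the control mean for the 10 genes in each library, as a colour scale with the value printed, with day 2, day 14 and control libraries from left to right. Car3 and Hsd3b5 lie between -9.67 and -5.31 at day 2 and between -1.99 and -1.09 at day 14, and Elovl3 and Stat5b are low on both days. Igf1 is above the control mean in every operated library, but by only 0.027 in day 2 replicate 3, which lies below control 1.

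Of the genes that depend on growth hormone further downstream, Car3 and Hsd3b5 stood furthest below control at day 2 on average. Car3 encodes carbonic anhydrase 3, an abundant protein of rodent liver, fat and muscle. Car3 stood at 3.12, 2.06, 31.6 and 6.61 FPKM at day 2, at 857 and 1170 at day 14 and at 2370 and 2604 in controls. The 3 groups were fully apart, and replicate 3 was the highest at day 2. Car3 differed from control by -8.38 ± 0.82 at day 2 and -1.31 ± 0.95 at day 14, and day 14 exceeded day 2 by 7.07 ± 0.82. The 6 adipocyte markers summed to 0.0761 to 0.508 FPKM at day 2, to 0.254 and 5.03 at day 14 and to 1.55 and 0.145 in controls, with Lep at 0 in all. The 6 skeletal muscle markers summed to at most 0.503 FPKM in any library, with Mb at 0 in all. The part of fat or muscle in the Car3 values was not tested.

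Hsd3b5, a male-specific steroid reductase of mouse liver, stood at 0.214, 0.195, 4.01 and 0.298 FPKM at day 2, at 66.7 and 49.0 at day 14 and at 206 and 189 in controls. Replicate 3 was again the highest at day 2, and the groups did not overlap. Hsd3b5 differed from control by -6.82 ± 0.56 at day 2 and -1.77 ± 0.65 at day 14, and day 14 exceeded day 2 by 5.05 ± 0.56. With a pseudocount of 0.1 in place of 1, the day 2 difference was -8.31 and day 14 minus day 2 was 6.52. Hsd3b5 has close relatives of similar sequence, between which shared reads may have been divided, so its level is uncertain. Elovl3, an elongase of long-chain fatty acids, stood at 11.3, 19.7, 3.12 and 11.5 FPKM at day 2, at 12.0 and 33.8 at day 14 and at 330 and 382 in controls. Unlike Car3 and Hsd3b5, its day 2 and day 14 values overlapped, and its lowest library was day 2 replicate 3. Elovl3 differed from control by -5.06 ± 0.62 at day 2 and -4.07 ± 0.72 at day 14, and day 14 minus day 2 was 0.99 ± 0.62.

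Counted together, 6 of the 10 genes were called lower at day 2 than in control and 0 higher, by limma with a Benjamini-Hochberg adjusted p below 0.05, where 21.2% of all tested genes were called, 11.5% lower and 9.72% higher. The 6 were Ghr, Stat5b, Igfals, Hsd3b5, Elovl3 and Car3. Stat5b and Elovl3, 2 of the 10, were called lower at day 14 than in control and 0 higher, where 9.79% of all tested genes were called, 4.58% lower and 5.21% higher. Ghr, Igfals, Hsd3b5 and Car3 were called higher at day 14 than at day 2 and 0 lower, where 16.1% of all tested genes were called, 9.09% higher and 7.03% lower. Fitted on the libraries of day 14 and control alone, that comparison gave 1 higher and 5 lower, where 28.7% of all tested genes were called. With no filter day 14 against control gave 1 lower, where 3.16% of all tested genes were called. With the length and GC trend removed it gave 1 lower, where 4.13% were. Because the genes were chosen on these contrasts, nothing is read from these counts. The counts also changed when single libraries were left out, as did the calls over all tested genes given below. With 1 library left out, the day 2 difference from control was -3.35 to -2.87 for Ghr and -1.61 to -1.40 for Stat5b. For Igfals it was -2.03 to -1.59, for Hsd3b5 -7.33 to -6.64, for Elovl3 -5.38 to -4.60 and for Car3 -9.08 to -7.95. Without control 1, and likewise without control 2, the day 2 count was 2 of 10. The day 14 count against control was 0 without day 14 replicate 1, without control 1 or without control 2, and 1 without day 14 replicate 2 or day 2 replicate 1. It was 3 lower without day 2 replicate 3, and 1 higher and 2 lower without day 2 replicate 2. Day 14 against day 2 gave 0 calls without day 14 replicate 1 and 2 without day 14 replicate 2.

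All 4 day 2 libraries lay below both controls for 7 of the 10 genes and above both for 0, where 25.4% and 26.1% of tested genes did so, and Igf1, Socs2 and Cish overlapped. Both day 14 libraries lay below both controls for 5 genes and above for 3, Igf1, Igfals and Socs2, where 35.7% and 35.3% of tested genes did so. Both day 14 libraries lay above all day 2 libraries for 6 genes and below all of them for 0, where 21.2% and 20.4% of tested genes did so. The median difference of the 10 genes was -1.85 at day 2 against control, -0.62 at day 14 against control and 1.34 at day 14 against day 2, beside 0.05, -0.00 and -0.03 over all tested genes. The last 2 comparisons share the day 14 libraries and the first 2 share the controls.

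Genes with the nearest profiles were sought for 3 of the 10, by the root mean square difference of log2(FPKM + 1), taken relative to the control mean, over the 8 libraries and among 6899 tested genes with a mean of at least 5 FPKM. Nearest to Ghr was Pigr, which encodes the receptor that carries immunoglobulin A across epithelia, with a root mean square difference of 0.20. Pigr stood at 35.3, 41.0, 76.5 and 49.1 FPKM at day 2, at 147 and 168 at day 14 and at 379 and 399 in controls. Ces1e (0.37) and Deptor (0.39) came next. Nearest to Hsd3b5 was Sult2a8, a sulfotransferase gene, at 0.59, followed by the bile acid enzyme gene Cyp8b1 at 1.30 and the transporter gene Slco1a1 at 1.36. Sult2a8 stood at 4.71, 5.38, 12.6 and 3.64 FPKM at day 2, at 253 and 376 at day 14 and at 595 and 642 in controls. Near Igf1 were Slc7a6os and Zfp623, each at 0.11, which is closer than any neighbour named for Ghr or Hsd3b5, and Igf1 itself varied least of the 3 genes for which profiles were sought.

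The 4 lists that follow were chosen with earlier results of these data known, so their counts and p-values are not independent support. The wider receptor cascade and IGF system, without the genes above, had 29 listed genes, of which 24 were tested. At day 2 against control 1 was called higher and 4 lower, with 19 not called, where 21.2% of all tested genes were called, and the median was -0.23 beside 0.05 over all tested genes. Socs3, an inhibitor of cytokine signalling induced by STAT3, rose by 3.13 ± 0.57 (limma adjusted p = 0.0103), at 12.8 to 71.7 FPKM at day 2 against 2.64 and 3.22 FPKM in controls. Insr, the insulin receptor gene, fell by 1.62 ± 0.21 (limma adjusted p = 0.00345). The 4 called lower include Irs1 and Igfbp5, which passed the filter only through groups where they were high, so no p is given for them. Irs1, which encodes a docking protein of the insulin and IGF1 receptors, stood at 0.357 to 0.619 FPKM at day 2, at 0.479 and 0.422 at day 14 and at 2.08 and 3.39 in controls. Its differences from control were -1.34 ± 0.22 at day 2 and -1.34 ± 0.25 at day 14, and -2.33 at both with a pseudocount of 0.1. Igfbp5, a binding protein of IGF1, stood at 0.106 to 0.280 FPKM at day 2, at 0.755 and 2.105 at day 14 and at 1.28 and 1.73 in controls. Its day 2 difference from control was -1.06 ± 0.26, or -2.45 with a pseudocount of 0.1.

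At day 14 against control, 0 of these 24 genes were called higher and 3 lower, Irs1 among them, where 9.79% of all tested genes were called. The median was -0.69 beside -0.00, while 1 was higher and 10 were lower at an unadjusted limma p under 0.05. The share of all tested genes at that p is not given, so nothing is read from such counts, here or in the lists below. This median also keeps the trend with length, under which long transcripts read lower than short ones in the operated mice. The longest annotated transcripts of Insr and Irs1 have 9355 and 9144 bases. Igfbp1, a liver-secreted binding protein of IGF1 that insulin represses, stood at 552, 1940, 283 and 287 FPKM at day 2, at 0.888 and 4.49 at day 14 and at 85.4 and 222 in controls. Its values were highest at day 2 and lowest at day 14, without overlap between groups. Igfbp1 fell by 5.43 ± 0.96 at day 14 against control (limma adjusted p = 0.0263) and by 7.40 ± 0.83 against day 2 (limma adjusted p = 0.0038), while its day 2 difference from control, 1.97 ± 0.83, did not pass (limma adjusted p = 0.124). Insr fell by 0.93 ± 0.24 at day 14 against control (limma adjusted p = 0.0489). With the length and GC trend removed Igfbp1 alone of the 3 called was still called, and Insr was at -0.55. Set against day 2, 1 gene of the 24 was called higher at day 14 and 3 lower, where 16.1% of all tested genes were called, with a median of -0.22 beside -0.03. The 1 higher was Igfbp5, with a difference of 0.96 ± 0.26, or 2.23 with a pseudocount of 0.1 and 0.55 without day 14 replicate 2. Ptpn11 and Shc1, which encode a phosphatase and an adaptor of receptor signalling, fell by 1.18 ± 0.23 and 0.77 ± 0.22.

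Male-biased liver genes, a list likewise chosen with earlier results known, were the list with most calls at day 2. Apart from Hsd3b5 and Elovl3 it had 29 genes, 28 of them tested, and 18 fell against control at day 2 while 0 rose, where 11.5% of all tested genes were called lower and 9.72% higher. Of the 28, 27 lay below 0, and the median was -2.04 beside 0.05 over all tested genes. Mup1, Mup3, Mup7, Mup11 and Mup21 are among the 18. Such close copies may share reads, so the 18 and the 27 are not counts of independent genes. The strongest falls were of Slco1a1, an organic anion transporter, by 5.13 ± 0.65 (limma adjusted p = 0.0034), Ugt2b1, a glucuronosyltransferase, by 4.35 ± 0.90 (limma adjusted p = 0.0151), and Keg1 by 4.29 ± 1.13 (limma adjusted p = 0.032). Keg1 stood at 2.42, 0.630, 42.3 and 11.9 FPKM at day 2, at 78.0 and 141 at day 14 and at 155 and 136 in controls, with day 2 replicate 3 highest of its group, as for Hsd3b5 and Car3. Without control 1 only 1 of the 28 was called, without control 2 there was 0, and leaving out any other library gave 13 to 21.

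At day 14 against control 0 male-biased genes were called in either direction, where 9.79% of all tested genes were, with 0 higher and 2 lower at an unadjusted limma p under 0.05, and the median was -0.18 beside -0.00. A p that misses the threshold does not show that levels were equal. Mup7, the most abundant of the list, encodes a major urinary protein with near-identical copies, so its level is uncertain. It stood at 4738, 6030, 4855 and 1015 FPKM at day 2, at 11848 and 19581 at day 14 and at 28077 and 26335 in controls. Between the 2 days, 14 rose at day 14 and 0 fell, where 9.09% of all tested genes were called higher and 7.03% lower. The list median was 1.96 beside -0.03. The 14 include Mup1, Mup3, Mup11 and Mup20, so this too is not a count of independent genes. Selenbp2, a selenium-binding protein gene, rose by 5.15 ± 1.12 (limma adjusted p = 0.0215), Ugt2b38 by 3.73 ± 0.47 (limma adjusted p = 0.00473) and Ugt2b1 by 3.58 ± 0.90 (limma adjusted p = 0.0341). Without day 14 replicate 1 the count was 0, without day 14 replicate 2 it was 5, and without control 1 or without control 2 it was 8. Levels of Ugt2b1 and Ugt2b38, of a family of close copies, are likewise uncertain.

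**Figure D4:**
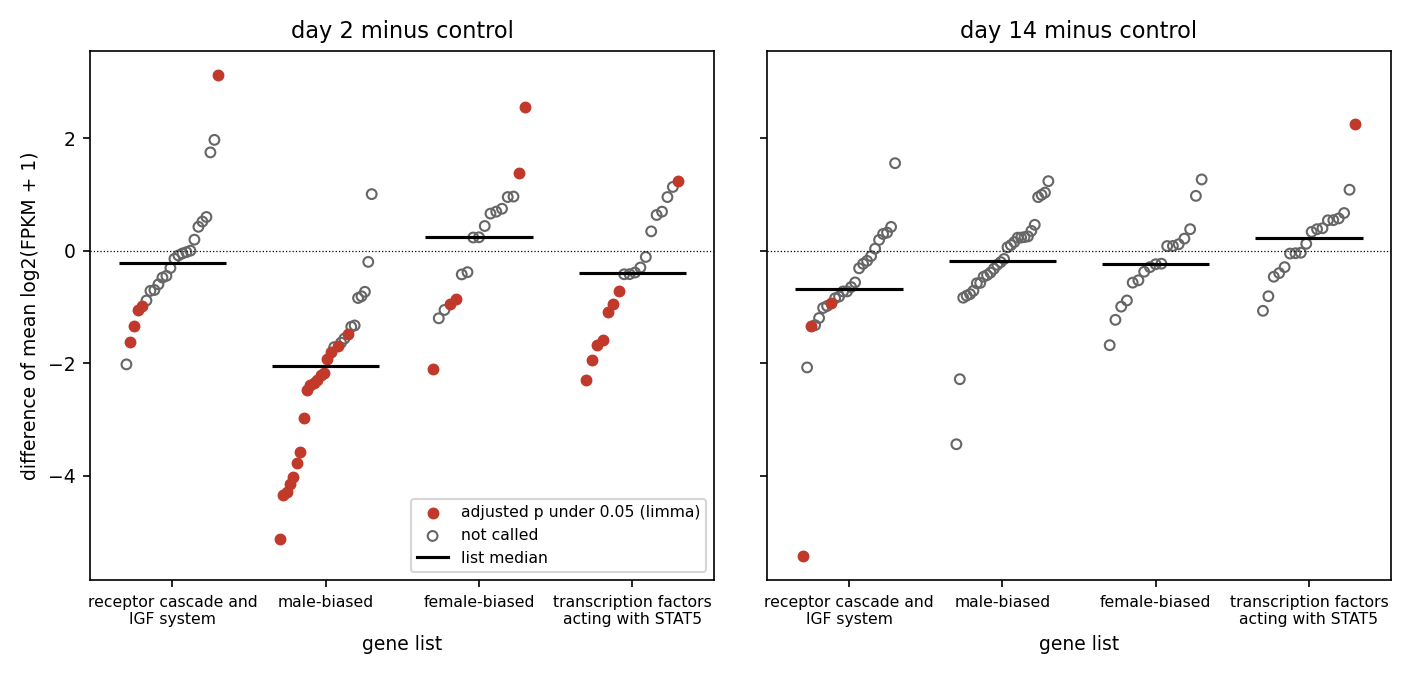
log2 difference of each tested gene of the 4 lists at day 2 minus control (left) and day 14 minus control (right); each point is 1 gene, called genes are filled and bars are list medians. In the male-biased list 18 of 28 genes were called lower at day 2 against control and 0 of 28 at day 14 against control, with medians of -2.04 and -0.18.

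Female-biased liver genes went both ways. Of 27 listed genes 17 were tested, and at day 2 against control 2 were called higher and 3 lower, where 9.72% and 11.5% of all tested genes were, with a median of 0.24 beside 0.05. Acot3 and Cyp2c69 passed the filter only through groups where they were high, so no p is given for them. Acot3, a peroxisomal acyl-CoA thioesterase gene, stood at 2.21 to 8.32 FPKM at day 2, at 0.542 and 1.88 at day 14 and at 0.0978 and 0.0455 in controls. Its day 2 difference from control was 2.56 ± 0.44, or 4.97 with a pseudocount of 0.1. Cyp17a1, a steroid hydroxylase gene, rose by 1.39 ± 0.34 (limma adjusted p = 0.027), and the difference was 0.81 without control 1. Cyp2c40 fell by 2.11 ± 0.47 and Susd4 by 0.87 ± 0.23. Cyp2c69 stood at 0.0646 to 0.402 FPKM at day 2, at 2.13 and 1.29 at day 14 and at 1.66 and 0.998 in controls, a day 2 difference of -0.95 ± 0.24, or -2.34 with a pseudocount of 0.1. Both Cyp2c genes have close copies. None of the 17 was called at day 14 against control, where 9.79% of all tested genes were, with 0 higher and 3 lower at an unadjusted limma p under 0.05, and a median of -0.24 beside -0.00. Susd4, its most abundant gene, stood at 7.87 to 13.2 FPKM at day 2, at 14.7 and 16.3 at day 14 and at 18.2 and 18.7 in controls. Relative to day 2, 1 was called higher at day 14 and 3 lower, where 9.09% and 7.03% of all tested genes were, with a median of -0.63 beside -0.03. Cyp17a1 fell by 1.30 ± 0.34 and the fatty acid transporter gene Cd36 by 1.23 ± 0.35, or by 0.65 without day 14 replicate 1. The differences were 1.17 ± 0.24 for Cyp2c69, or 2.68 with a pseudocount of 0.1, and -1.59 ± 0.44 for Acot3.

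Transcription factors that act with STAT5 in liver, had 18 genes listed and all tested. At day 2 against control 1 rose and 7 fell, where 9.72% and 11.5% of all tested genes were called, with a median of -0.40 beside 0.05. Trim24, a co-regulator of nuclear receptors, rose by 1.25 ± 0.27 (limma adjusted p = 0.0169). Onecut1, the HNF6 gene, fell by 2.30 ± 0.52 (limma adjusted p = 0.0202), Zhx2, a regulator of sex-biased liver genes in mice, by 1.94 ± 0.55 (limma adjusted p = 0.0408), and Cebpa, a hepatocyte differentiation factor, by 1.68 ± 0.34 (limma adjusted p = 0.0144). As for Cish and Bcl6, the controls were apart for Onecut1, at 22.4 and 6.29 FPKM, and Zhx2, at 23.8 and 6.97 FPKM. Without control 1 and without control 2, the Onecut1 difference was -1.46 and -3.14 and that of Zhx2 was -1.12 and -2.76. Cebpb, a factor induced in acute-phase responses, rose at day 14 against control by 2.26 ± 0.44 (limma adjusted p = 0.0296), and 0 fell, where 5.21% and 4.58% of all tested genes were called, with a median of 0.23 beside -0.00. With the length and GC trend removed the Cebpb difference was 1.65 and not called. Against day 2, 5 were called higher at day 14 and 0 lower, where 9.09% and 7.03% of all tested genes were, with a median of 0.65 beside -0.03. Onecut1 rose by 2.27 ± 0.52, Cebpa by 2.22 ± 0.34 and Foxa2 by 1.20 ± 0.33. Cux2 and Tox are on both this list and the female-biased one.

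These named calls rest on few libraries. Of the 16 named calls of the 4 lists at day 2 against control, 0 held without control 1 or without control 2, where Irs1 was no longer tested. Of the 4 at day 14 against control, 0 held without day 14 replicate 1, control 1 or control 2, and 1 without day 14 replicate 2. Of the 14 at day 14 against day 2, 0 held without day 14 replicate 1, 6 without day 14 replicate 2 and 8 without control 1 or without control 2. With 1 library left in a group, that library is assumed to vary like the other groups. Of the same 14, 5 held with no filter. Without day 2 replicates 1, 2, 3 and 4 in turn, 6, 9, 11 and 9 held. Over all tested genes the day 2 calls numbered 2620, but 96 without control 1 and 92 without control 2.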

How the data were processed

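The deposited table, made by the authors, holds FPKM values with 1 column per library. Among the tools in the submitters' processing notes are Cufflinks 2.2.1, HISAT2 2.10, DESeq2 and HTSeq, and both mm9 and GRCm38 stand there as builds, without order or role. Neither the tool nor the annotation behind the FPKM values is given in the sources used here, and since read counts are unknown no counting intervals were computed. A gene was tested if at least 2 libraries reached 1 FPKM. limma 3.58.1 (R 4.3.3) fitted 3 group means to log2(FPKM + 1) of all 8 libraries, letting the variance follow the mean, with 5 degrees of freedom from the residuals and 3.23 from the prior. The Benjamini-Hochberg adjustment ran over all tested genes of a comparison, and a gene was called below 0.05. Standard errors are from this fit, and the method was tested on simulated data.

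The 10 genes and the 4 lists were chosen with earlier results of these data known. From each list, the text names the 3 called genes most increased and most decreased in each comparison, or the most abundant gene of a list without calls, and for Ghr, Igf1 and Hsd3b5 the 3 nearest profiles, of which 1 is not reported here. The age labels set the groups. Day 2 replicate 1 carries day 1 in its title, and the title of replicate 3 has letters that no label explains. Coordinates and transcript lengths are from GENCODE M21 on GRCm38, and promoters from RefSeq on GRCm38.p6. Results were recomputed with median-ratio scaling, with a filter at 5 FPKM or none, with a pseudocount of 0.1, on the libraries of the 2 compared groups alone, with the dependence on length and GC taken out by splines of 4 degrees of freedom, and without each library.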

Additional observations from a re-analysis of the deposited data

Results flagged for a closer look

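Among 35 genes checked for 1 day 2 library far from the other 3, 2 were marked as past Dixon's critical value for 4 libraries, and chance marks about 1 group in 20. Hsd3b5 had its highest day 2 value in replicate 3, with a gap to the next library of 0.942 of the group's range on the log2 scale (4.01 FPKM, against 0.298 FPKM for the next). Mup7 had its lowest day 2 value in replicate 4, with a gap of 0.865 of that range (1015 FPKM, against 4738 FPKM for the next).

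In the same 35 genes, 4 had all day 2 and all day 14 libraries on opposite sides of both controls. The share of all tested genes with this pattern was not computed, so nothing is read from the count. Of all tested genes, 25.4% lay wholly below and 26.1% wholly above the controls at day 2. At day 14 these shares were 35.7% and 35.3%. The 35 were also chosen with earlier results known. Day 14 exceeded day 2 by 2.18 log2 units for Igfals, 2.22 for Cebpa and 5.15 for Selenbp2, all below control at day 2 and above it at day 14. For Igfbp1 the day 14 minus day 2 difference was -7.40, above control at day 2 and below it at day 14. Both effects share the controls. The 4 genes are singled out here by this pattern, so no test of the pattern is given.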

How the results depend on the processing

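Counts of called genes depended on the controls and on the day 14 libraries, and 0 of the values recomputed changed sign while called. No paired analysis was possible because the titles of the compared groups share too few numbers and the other replicate numbers follow accession order. With the length and GC trend removed, 1739 of 12307 genes were called at day 2 against control (14.1%) and 508 at day 14 against control (4.13%). In the main fit these were 2620 and 1208 of 12340. With the trend removed, 0 of 18 transcription factors were called at day 14 against control. Of 24 cascade genes 2 were called at day 14 against day 2, where 16.3% of all tested genes were. With no filter, day 2 against control called 9.35% of all tested genes. It called 10 of 29 male-biased, 3 of 27 female-biased and 4 of 18 transcription factor genes. Day 14 against control called 691 genes in all, or 3.16%. Day 14 against day 2 called 6.72% of all, with 2 of 29 cascade and 6 of 29 male-biased genes. It also called 1 of 27 female-biased and 3 of 18 transcription factor genes. A filter at 5 FPKM gave 3 of 18 cascade genes at day 2 against control, where 25.8% of all tested genes were called. At day 14 against day 2 it gave 2 of 7 female-biased genes, where 19.9% were. With only the 2 compared groups, day 14 against control gave 3239 of 11293 genes in all (28.7%). These included 13 of 22 cascade, 2 of 28 male-biased, 4 of 12 female-biased and 2 of 16 transcription factor genes. Day 14 against day 2 gave 996 of 11990 in all (8.31%). Among them were 2 of 21 cascade, 2 of 16 female-biased and 3 of 18 transcription factor genes. The cause of these shifts was not tested.

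Leaving out each library gave 92 to 2971 called genes at day 2 against control, 0 to 2097 at day 14 against control and 17 to 2472 at day 14 against day 2. In the same order, cascade genes numbered 0 to 6, 0 to 6 and 0 to 5, female-biased genes 0 to 6, 0 to 2 and 0 to 5, and transcription factors 0 to 8, 0 to 1 and 0 to 5. Male-biased genes numbered 0 to 21 at day 2 against control, 0 throughout at day 14 against control and 0 to 18 at day 14 against day 2. Median-ratio scaling and a pseudocount of 0.1 moved none of these counts by over 1.5 times. Of the values of single genes, 1258 kept their size or call, 161 lost a call, 19 gained one and 13 moved by more than the spread between replicates, those of Cish, Bcl6, Igf1 and Hsd3b5 given above. A pseudocount of 0.1 also enlarged the differences of Acot3, Cyp2c69, Igfbp5 and Irs1 by over 1.5 times, as given there. Depth is unknown, and differences of genes under 1 FPKM are the least certain.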
